A study of Homo sapiens with 24 samples.

Results

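The genes described are 7 of the 60617 in the count table: the aryl hydrocarbon receptor (AHR), its partner ARNT, the feedback inhibitors AHRR and TIPARP, and the cytochrome P450 family 1 genes CYP1A1, CYP1A2 and CYP1B1. Each was taken as the row whose Ensembl identifier carries that symbol in the GRCh38 annotation, and each matched 1 row. They were chosen by name, with earlier results of these data known. All libraries came from a single malignant cell line, MDA686TU, of head and neck squamous cell carcinoma. It was compared in 4 groups of 6 libraries: untreated control cells, cells with EGCG, a green tea catechin, at 40 µM, cells with resveratrol, a stilbene of grapes, at 15 µM, and cells with both agents at these doses (the combination). Treatment lasted 24 h, and RNA was read by stranded mRNA sequencing. EGCG was given in water and resveratrol from a DMSO stock. The methods of the study do not state whether control cells got DMSO, so an effect of resveratrol and one of that solvent cannot be told apart. No gene was altered in any group, so there is no receptor knockout to compare with.

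The receptor is a ligand-activated transcription factor of the bHLH-PAS family. It waits in the cytoplasm bound to the chaperone HSP90 with p23 (PTGES3), enters the nucleus when a planar aromatic compound binds it, pairs with ARNT and binds the xenobiotic response element, whose core is read as GCGTG. Its best known targets are the CYP1 genes, which encode monooxygenases that oxidize polycyclic aromatic hydrocarbons, estrogens and many plant phenols, and AHRR and TIPARP, which hold the receptor back. Tobacco smoke carries such ligands, and the pathway is widely studied in the epithelium of the mouth and airways.

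Libraries held between 7034872 and 11735574 counts, and 15476 genes passed the filter on low counts. Of the 6 squamous epithelial markers, KRT5, KRT14, KRT6A, TP63, SFN and DSG3, all were present, with a summed level of 14990 to 16000 counts-per-million (CPM) in the control, 14430 to 16360 with EGCG, 12520 to 13300 with resveratrol and 12220 to 13340 with the combination. With resveratrol 4 of the 6 fell and 1 rose, and with the combination 3 fell and 2 rose, where 56.9% and 59.8% of all tested genes were DEGs. With library size alone as the scaling 3 fell and 1 rose with resveratrol, and 3 fell and 3 rose with the combination. The SFN fall with resveratrol was lost there (-0.01, edgeR adjusted p = 0.803) and in replicates 4 to 6 alone (-0.07, edgeR adjusted p = 0.118). With EGCG 0 were DEGs by edgeR or DESeq2 and 0 had an unadjusted p under 0.05. The part of these marker changes in the results was not tested. The 8 markers of leukocytes, endothelium and fibroblasts together gave 2.31 to 4.59 CPM in any library, and 0 of the 8 were at 0 counts in all libraries. Replicates 1 to 3 and 4 to 6 stood apart in every group, with mitochondrial transcripts at 0.249% to 0.326% and at 0.448% to 0.775% of counts. No label names this division, so for the main changes of the members the values within each set are given, and for genes of the related lists it is said where a call was lost in 1 set.

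The sequences before the starts of these genes are shown because the element that the activated receptor binds can be read in them directly. The letters GCGTG were searched on both strands, and so was the longer TNGCGTG, every match of which also holds GCGTG. RefSeq promoter entries (GRCh38.p14) matched 6 of the 7 genes, with none for CYP1B1. In the 2000 bases before the RefSeq start, CYP1A1 held 11 matches to GCGTG and 5 to TNGCGTG. As many were found at 0.7% and 0.1% of the 35116 starts, where the median was 2 and 0. Capitals mark GCGTG or, for a match on the other strand, CACGC. The first line is the stretch of 300 bases with the most matches in front of CYP1A1, and the others are the 250 bases next to the start of each gene, all written 5′ to 3′ in the direction of transcription.
CYP1A1 upstream window, chr15:74726489-74726788, minus strand, 1260 to 961 bases before the start, 5 matches: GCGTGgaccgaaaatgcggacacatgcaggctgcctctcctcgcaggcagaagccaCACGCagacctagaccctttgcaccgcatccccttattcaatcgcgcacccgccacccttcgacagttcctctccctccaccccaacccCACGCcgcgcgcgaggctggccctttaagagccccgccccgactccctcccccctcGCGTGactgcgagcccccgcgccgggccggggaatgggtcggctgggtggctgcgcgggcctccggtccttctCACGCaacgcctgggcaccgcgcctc
CYP1A1 promoter, chr15:74725529-74725778, minus strand, 1 match: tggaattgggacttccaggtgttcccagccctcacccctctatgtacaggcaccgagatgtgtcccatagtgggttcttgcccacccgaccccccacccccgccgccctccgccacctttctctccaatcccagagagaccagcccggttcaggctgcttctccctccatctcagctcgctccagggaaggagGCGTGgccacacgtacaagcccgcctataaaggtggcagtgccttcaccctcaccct
CYP1A2 promoter, chr15:74748595-74748844, plus strand, 0 matches: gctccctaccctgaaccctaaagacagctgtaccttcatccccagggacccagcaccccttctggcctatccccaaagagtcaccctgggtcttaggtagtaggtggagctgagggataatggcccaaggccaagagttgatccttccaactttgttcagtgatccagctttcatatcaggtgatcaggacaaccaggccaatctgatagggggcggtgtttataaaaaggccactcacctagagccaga
TIPARP promoter, chr3:156674340-156674589, plus strand, 2 matches: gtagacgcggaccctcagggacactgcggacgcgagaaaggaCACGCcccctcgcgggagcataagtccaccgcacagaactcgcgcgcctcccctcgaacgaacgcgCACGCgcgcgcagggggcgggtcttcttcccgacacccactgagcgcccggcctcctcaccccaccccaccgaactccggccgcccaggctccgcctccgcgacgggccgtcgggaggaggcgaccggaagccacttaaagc

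CYP1A1 and CYP1A2 lie next to each other and point in opposite directions. In windows of 300 bases that reach 50 bases past the start, 36.5% of all promoters held at least 1 GCGTG and 5.5% held TNGCGTG, so a single match is common. The 2000 bases before CYP1A2 held 1 match, which 78.5% of starts reach, and those before the first RefSeq start of TIPARP held 7, which 5.6% reach. AHRR had 4 and 8 matches before its 2 starts, ARNT 6, and AHR 0. These are matches of letters and carry no evidence of binding in these cells.

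The receptor itself was higher with resveratrol. AHR (ENSG00000106546, chr7:16916359-17346152, plus strand) had a lowest, median and highest level of 42.3, 46.7 and 53.2 CPM in the untreated control and of 40.5, 47.1 and 58.5 with EGCG. With resveratrol these levels were 67.0, 69.3 and 73.4 CPM, and with the combination 66.7, 74.0 and 82.2. The 12 libraries with resveratrol, alone or combined, all lay above the 12 without it. Compared to untreated control, AHR rose by 0.58 ± 0.0624 on the log2 scale (estimate ± SE, edgeR adjusted p = 7.5e-10), a 1.49-fold rise, with resveratrol. The rise was 0.66 ± 0.0627 with the combination (edgeR adjusted p = 2.6e-11), or 1.58-fold. With resveratrol it was 0.62 in replicates 1 to 3 alone and 0.54 in replicates 4 to 6 alone, and with the combination 0.70 and 0.63. EGCG gave 0.04 with a 95% interval of -0.09 to 0.17 (edgeR adjusted p = 0.914), and the combination differed from resveratrol by 0.08 with an interval of -0.04 to 0.20 (edgeR adjusted p = 0.503). A higher level in each cell and a larger share of cells with the transcript cannot be told apart in bulk RNA, here or for any gene that follows.

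ARNT (ENSG00000143437, chr1:150809713-150876708, minus strand), without which the receptor cannot bind its element, moved little. Its lowest, median and highest levels were 25.8, 31.9 and 34.4 CPM in the control, 27.5, 30.1 and 34.8 with EGCG, 31.7, 36.5 and 39.6 with resveratrol. Under the combination they were 31.6, 34.0 and 36.6 CPM. The 4 ranges overlap. ARNT rose by 0.21 ± 0.064 with resveratrol (edgeR adjusted p = 0.00524), but replicates 4 to 6 alone gave 0.10 (edgeR adjusted p = 0.331) and replicates 1 to 3 alone 0.32. With the combination the change was 0.12 ± 0.0655 (edgeR adjusted p = 0.111), at 0.24 in replicates 1 to 3 (edgeR adjusted p = 0.0342) and 0.00 in replicates 4 to 6 (edgeR adjusted p = 0.977). It passed the threshold in 12 of the alternative settings, replicates 1 to 3 alone included. Among them were fits without combination replicate 5, EGCG replicate 1, 2, 4 or 6, or control replicate 3, 5 or 6, at 0.14 to 0.15. Library size alone as the scaling gave 0.21. EGCG gave -0.04 (edgeR adjusted p = 0.926).

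Of the inhibitors, TIPARP fell with resveratrol and AHRR was too scarce to follow. TIPARP (ENSG00000163659, chr3:156673235-156706770, plus strand) encodes a mono-ADP-ribosyltransferase that modifies the receptor and ends its activity. It had a lowest, median and highest level of 138, 142 and 151 CPM in the control, 125, 134 and 140 with EGCG, 115, 120 and 121 with resveratrol. Under the combination it was at 97.1, 116 and 126 CPM. No library with resveratrol reached the lowest control library, while the EGCG range overlapped the control's. TIPARP fell by 0.27 on the log2 scale (SE 0.041, edgeR adjusted p = 9.1e-07) with resveratrol. It fell by 0.33 (SE 0.0414, edgeR adjusted p = 1.5e-08) with the combination, and in replicates 1 to 3 and 4 to 6 the change was -0.31 and -0.22 with resveratrol. Under the combination these sets gave -0.39 and -0.27. The change with EGCG was -0.10 with an interval of -0.18 to -0.02 (edgeR adjusted p = 0.33), lower than the control mean in 6 of 6 libraries but not a DEG. It was -0.14 and -0.06 in these sets of replicates. Against EGCG the combination was lower by a log2 change of -0.23 (edgeR adjusted p = 1.5e-05), although 1 or more libraries of these groups overlapped.

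AHRR (ENSG00000063438, chr5:321714-438291, plus strand), which competes with the receptor for ARNT, had 0 to 6 counts per library, with sums of 23, 13, 17 and 15 counts in the control, EGCG, resveratrol and combination groups. It stayed under the filter on low counts. Two-sided exact permutation tests of its log2 CPM, 6 libraries against 6, gave p = 0.113 for EGCG, 0.26 for resveratrol and 0.134 for the combination against the control. For the combination the exact permutation p was 0.931 against resveratrol and 0.617 against EGCG. The smallest p this design allows is 0.00216, and the lowest of the 5 values after Benjamini-Hochberg adjustment was 0.335 (same exact tests). No difference in AHRR was detectable at this depth.

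CYP1A1 and CYP1B1 fell with each agent, more with resveratrol than with EGCG, and had the largest changes of the pathway. CYP1A1 (ENSG00000140465, chr15:74719542-74725536, minus strand) is the classical reporter of receptor activity. It had 17.5, 20.2 and 22.3 CPM as its lowest, median and highest level in the control, and 12.0, 14.7 and 16.5 with EGCG. With resveratrol the level was 0.455, 0.889 and 1.32 CPM, and with the combination 0.39, 1.10 and 1.32 CPM. Control libraries held 147 to 199 CYP1A1 counts each, resveratrol libraries 5 to 13 and combination libraries 3 to 13. The EGCG libraries all lay below the control, and all libraries with resveratrol lay below every EGCG library. Mean levels were 20.2 ± 2.0 CPM (SD, n = 6) in the control, 14.6 ± 1.57 after EGCG, 0.875 ± 0.317 after resveratrol and 1.01 ± 0.326 after both. These treated levels were 72.2%, 4.34% and 5.01% of the control mean.

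**Figure D1:**
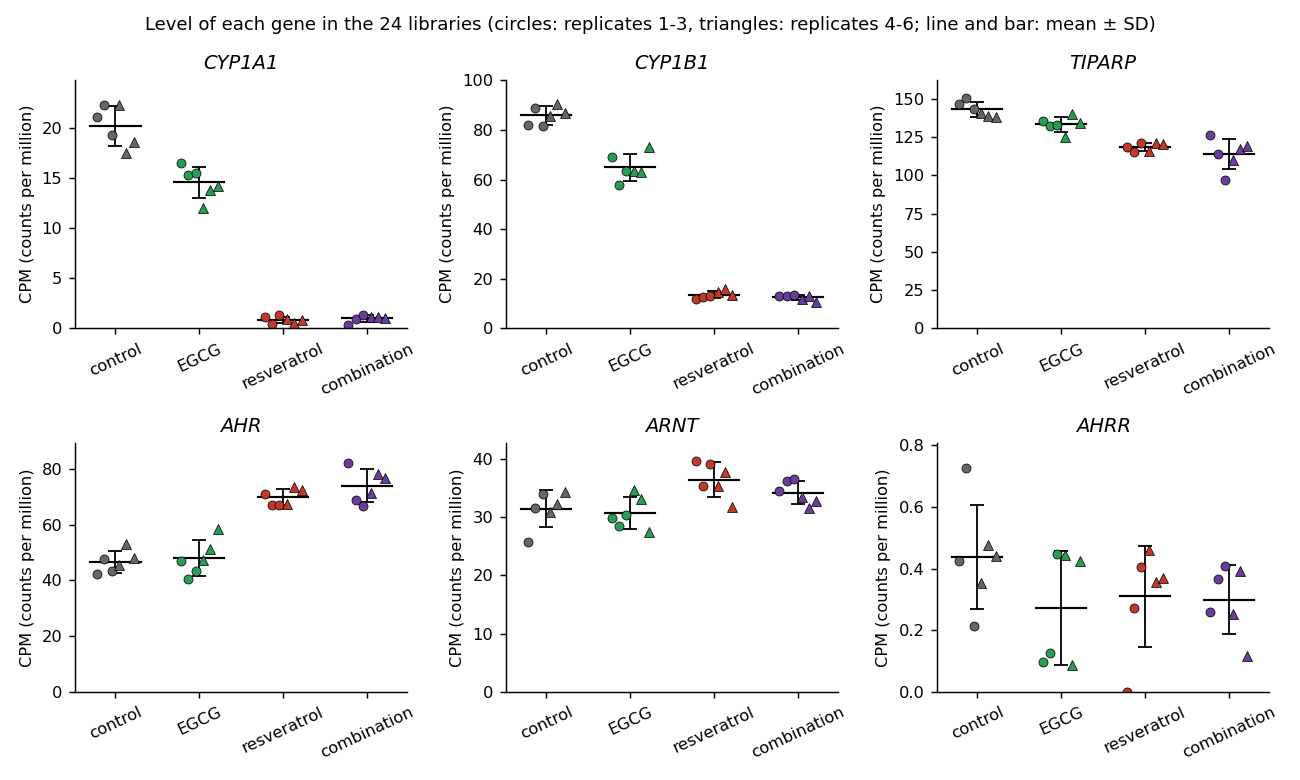
Level of 6 genes in CPM (vertical axis, from 0) in each of the 24 libraries, by group. Circles are replicates 1 to 3, triangles replicates 4 to 6, and lines with bars the mean ± SD of 6 libraries. CYP1A1 and CYP1B1 drop with EGCG and far more with resveratrol, AHR lies higher in all libraries with resveratrol, and AHRR never exceeds 1 CPM.

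By edgeR, CYP1A1 fell by 4.51 with resveratrol on the log2 scale (SE 0.145, adjusted p = 3.1e-24), a 22.8-fold fall. With the combination it fell by 4.28 (SE 0.145, edgeR adjusted p = 8.6e-24), or 19.4-fold. The change with resveratrol was -4.46 in replicates 1 to 3 alone and -4.59 in replicates 4 to 6, and with the combination -4.46 and -4.10. In both comparisons this was the lowest log2 fold change of the 15476 genes tested, and CYP1B1 had the second lowest. CYP1A1 passed the filter on low counts only through its control and EGCG libraries, so that it could be tested at all depended on where it was high. With EGCG alone CYP1A1 was lower by a log2 change of -0.46 (SE 0.0833, edgeR adjusted p = 0.00105), or 1.38-fold, in 6 of 6 libraries. That change was -0.40 in replicates 1 to 3 alone (edgeR adjusted p = 0.207) and -0.53 in replicates 4 to 6 alone (edgeR adjusted p = 0.00685).

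CYP1B1 (ENSG00000138061, chr2:38066973-38109902, minus strand), the family member best known for hydroxylating estradiol outside the liver, followed the same order of groups at a higher level. Its lowest, median and highest levels were 81.5, 86.1 and 90.5 CPM in the control, and 57.7, 63.3 and 73.1 with EGCG. With resveratrol they were 11.8, 13.2 and 15.8 CPM, and with the combination 10.7, 13.1 and 13.3. Control, EGCG and the groups with resveratrol did not overlap, and the last 2 groups did. CYP1B1 fell by 2.66 (SE 0.0607, edgeR adjusted p = 8.9e-29) with resveratrol, a 6.34-fold fall to 15.8% of the control mean. It fell by 2.77 (SE 0.0628, edgeR adjusted p = 4.9e-29) with the combination, to 14.6%, and by 0.40 (SE 0.0485, edgeR adjusted p = 6.6e-07) with EGCG, to 75.7%. Within replicates 1 to 3 and 4 to 6 the changes were -2.74 and -2.58 with resveratrol, -2.67 and -2.88 with the combination, and -0.40 in both with EGCG.

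CYP1A2 (ENSG00000140505, chr15:74748845-74756607, plus strand), the hepatic member of the family, had 1 count in the 6 control libraries together, 1 with EGCG and 0 in the other groups. A count of 0 allows up to 3 counts over a group, which is 0.0559 CPM with resveratrol and 0.0617 CPM with the combination. These limits cover counting error only. They do not apply to the control and EGCG groups, which held 1 count each. With so few counts in all 4 groups, no fold is given.

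The combination was then set against each agent. Against resveratrol, CYP1A1 differed by 0.23 with a 95% interval of -0.35 to 0.81 (edgeR adjusted p = 0.741), and CYP1B1 by -0.11 with an interval of -0.28 to 0.06 (edgeR adjusted p = 0.541). In replicates 4 to 6 alone CYP1B1 differed by -0.30 (edgeR adjusted p = 0.228) and in replicates 1 to 3 alone by 0.07 (edgeR adjusted p = 0.782). TIPARP differed by -0.06 (edgeR adjusted p = 0.46) and ARNT by -0.09 (edgeR adjusted p = 0.493), so 0 of the 5 tested members were DEGs by edgeR or DESeq2, and 0 had an unadjusted p under 0.05. Among all tested genes 7.86% were DEGs in that comparison. Against EGCG, 5 of 5 passed, where 57.8% of all genes did: CYP1A1 at -3.82, CYP1B1 at -2.37 and TIPARP at -0.23 were lower, as 29.1% of genes were, and AHR at 0.62 and ARNT at 0.16 higher, as 28.7% were. ARNT was lost there without combination replicate 2 or 3 (0.14 in both, edgeR adjusted p = 0.09 and 0.0954, with unadjusted p over 0.05) and in replicates 4 to 6 alone (0.03).

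Whether EGCG and resveratrol added up was read from the interaction, the difference between the log2 change with both agents and the sum of the changes with each. For CYP1A1 it was 0.69 with an interval of 0.08 to 1.31 (edgeR adjusted p = 0.576), and for CYP1B1 0.29 with an interval of 0.10 to 0.49 (edgeR adjusted p = 0.334). In both genes the fall with the combination was smaller than the sum, but 0 of the 5 members passed the correction by edgeR or DESeq2 and 2, these ones, had an unadjusted p under 0.05. Among all genes 0.265% passed. In replicates 1 to 3 alone CYP1B1 gave 0.48 and CYP1A1 0.39, and in replicates 4 to 6 they gave 0.10 and 1.03. The interaction was 0.04 for AHR, -0.06 for ARNT and 0.04 for TIPARP.

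**Figure D2:**
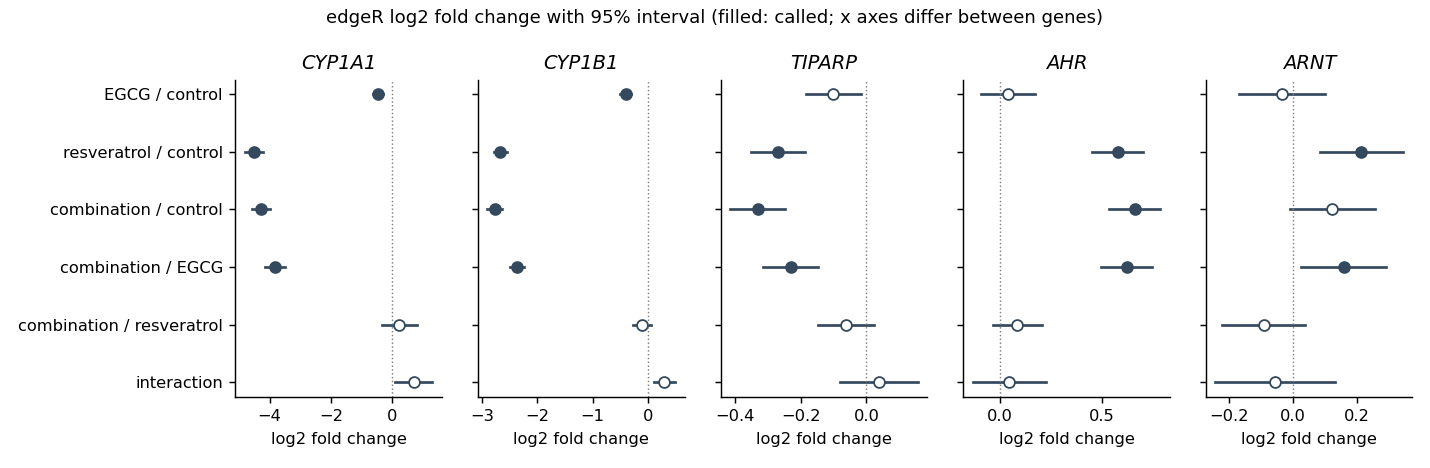
Log2 fold change (horizontal axis, scaled separately for each gene) of the 5 tested genes in the 6 comparisons, with 95% intervals from edgeR. Filled points passed the threshold for DEGs. The 3 comparisons across resveratrol lie far from 0 for CYP1A1 and CYP1B1 and to the right of 0 for AHR, and none of the open points of the combination against resveratrol passed.

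In numbers of DEGs, 2 of the 5 tested members were lower with EGCG, where 1.76% of all tested genes were DEGs and 0.859% were lower. With resveratrol 2 were higher and 3 lower, where 56.9% of genes were DEGs, 28.9% higher and 28.0% lower. The combination gave 1 higher and 3 lower beside 59.8% of genes, 29.9% in each direction. Most tested genes were DEGs with resveratrol and the combination, so being a DEG there does not set a member apart. CYP1A1 and CYP1B1 were also below the control in all libraries with EGCG, without overlap, which 0.801% of all genes were. The libraries of AHR, CYP1A1, CYP1B1 and TIPARP did not overlap the control with resveratrol or with the combination, beside 31.1% and 31.9% of genes. These comparisons share the 6 control libraries.

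Levels of different genes were compared per length, by the FPKM values of the authors. TIPARP had the highest mean in the control at 29.6 FPKM, then CYP1B1 at 14.2, CYP1A1 at 5.96, AHR at 5.76, ARNT at 4.85 and AHRR at 0.0966. The ranges of CYP1A1, at 5.17 to 6.59 FPKM, and AHR, at 5.23 to 6.54, overlapped there. With resveratrol the order was TIPARP at 24.5 FPKM, AHR at 8.58, ARNT at 5.60, CYP1B1 at 2.25 and CYP1A1 at 0.258. The receptor thus passed from below CYP1B1 to above it on this scale. The ratio of CYP1B1 to AHR within a library was 2.29 to 2.60 in the control, 1.66 to 1.98 with EGCG, 0.224 to 0.295 with resveratrol and 0.188 to 0.269 with the combination.

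CYP1A1 and CYP1B1 did not fall in proportion. The FPKM ratio of CYP1A1 to CYP1B1 had a lowest, median and highest value of 0.345, 0.433 and 0.465 in the control, and of 0.339, 0.408 and 0.473 with EGCG. With resveratrol it was 0.0641, 0.112 and 0.180, and with the combination 0.0524, 0.165 and 0.177. Groups with resveratrol did not overlap those without it, while EGCG and control did. The ratio is given as a description, and in these groups it rests on 3 to 13 counts of CYP1A1 in a library. AHR over ARNT, the receptor against its partner, had a mean of 1.19 in the control, 1.26 after EGCG, 1.54 after resveratrol and 1.74 after both.

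**Figure D3:**
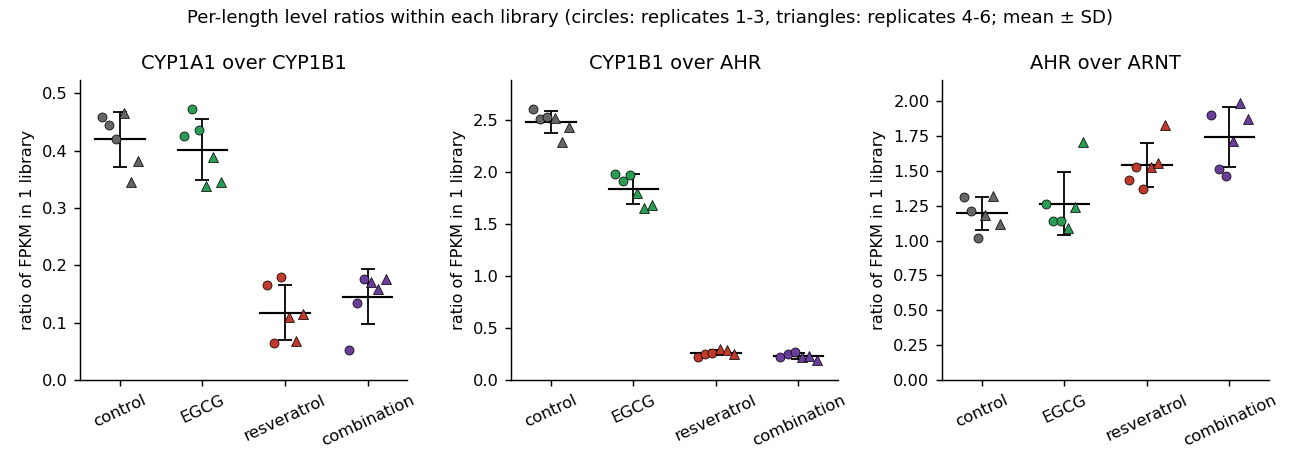
Ratio of FPKM values within each library (vertical axis, from 0) for CYP1A1 over CYP1B1, CYP1B1 over AHR and AHR over ARNT, with the mean ± SD of 6 libraries; circles are replicates 1 to 3 and triangles replicates 4 to 6. The first ratio is at or above 0.339 in all libraries without resveratrol and at or below 0.180 in all libraries with it.

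Some of these loci overlap other genes, and the counting program and its strand setting are not given in the sources used here. CYP1B1 overlaps RMDN2 on the opposite strand, with a mean of 21.6 counts, and the antisense CYP1B1-AS1, with 4.63 counts. RMDN2 changed by -0.34 with resveratrol (edgeR adjusted p = 0.196) and by -0.31 with the combination (edgeR adjusted p = 0.234). TIPARP-AS1 had a mean of 3.25 counts and the lncRNA ENSG00000237773, opposite to AHR, 5.25. AHRR lies within the readthrough gene PDCD6-AHRR, which is not analysed here, so its few counts are of uncertain origin.

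The tested genes on either side of CYP1A1 changed far less than it did. Of 14 protein-coding genes within 250 kb, 11 were tested, and with resveratrol 5 rose and 1 fell, with log2 changes from -0.19 to 0.55, where 56.9% of all genes were DEGs. The tested gene nearest by start, EDC3, changed by 0.02 (edgeR adjusted p = 0.693) and CSK, on the other side of CYP1A2, by -0.05 (edgeR adjusted p = 0.265). ULK3 rose by 0.55 (edgeR adjusted p = 1.4e-09) and COX5A fell by 0.19 (edgeR adjusted p = 0.00045). With the combination 7 rose and 1 fell, between -0.22 and 0.60, beside 59.8% of all genes. With EGCG 1 of 11 rose, beside 1.76% of genes, MPI at 0.17 (edgeR adjusted p = 0.0327, but 0.112 without control replicate 6, and 0.435 and 0.503 in replicates 1 to 3 and 4 to 6 alone). Beside CYP1B1, ATL2 changed by -0.02 (edgeR adjusted p = 0.79) with resveratrol, and beside TIPARP, SSR3 fell by 0.14 (edgeR adjusted p = 0.0072), or by 0.05 with library size alone as the scaling (edgeR adjusted p = 0.356). Under the combination both were DEGs, ATL2 at -0.14 (edgeR adjusted p = 0.0297) and SSR3 at -0.14 (edgeR adjusted p = 0.00713). Both calls were lost with library size alone, at -0.06 and -0.05 (edgeR adjusted p = 0.391 and 0.311).

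**Figure D4:**
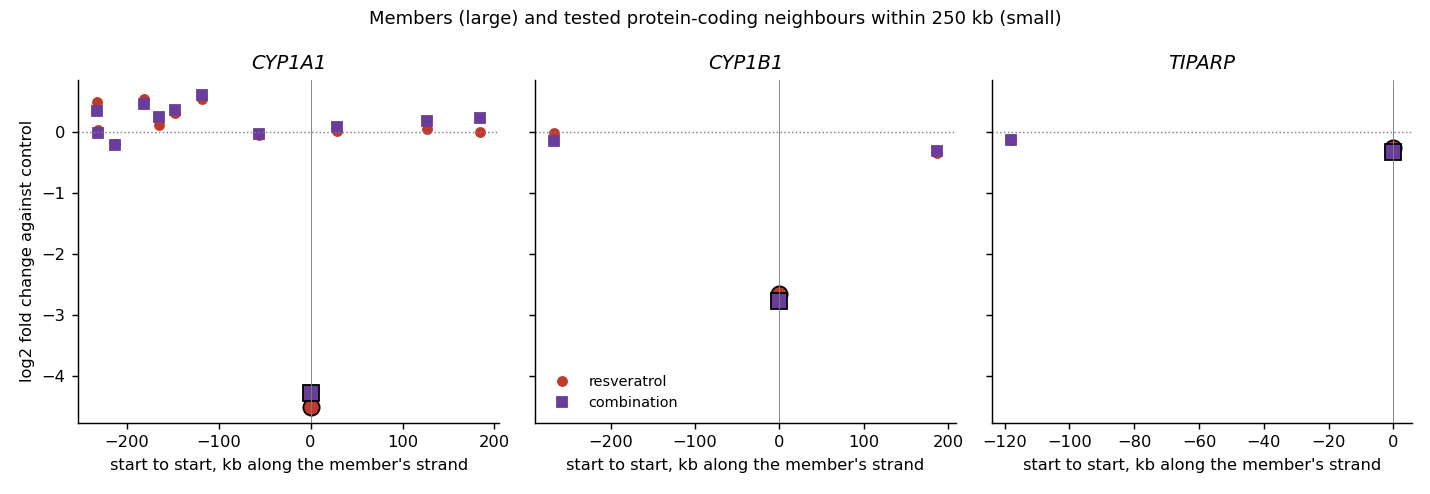
Log2 fold change against the control (vertical axis) of CYP1A1, CYP1B1 and TIPARP, drawn large at 0, and of the tested protein-coding genes within 250 kb of each, by distance between starts in kb along the member's strand. Circles are resveratrol and squares the combination. Neighbours of CYP1A1 lie between -0.22 and 0.60, while CYP1A1 lies at -4.51 and -4.28.

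Of the receptor's chaperones, both HSP90 genes and p23 fell with resveratrol and with the combination. Of 11 listed genes 10 were tested, and 5 fell and 2 rose with resveratrol, 6 fell and 1 rose with the combination, and with EGCG 0 were DEGs by edgeR or DESeq2, with 1 higher and 2 lower at an unadjusted p under 0.05. The 7 DEGs of 10 in each of the first 2 comparisons stand beside 56.9% and 59.8% of all genes. With library size alone as the scaling these numbers were 4 lower and 2 higher with resveratrol, and 3 lower and 4 higher with the combination. The median log2 change of the list was -0.15 with resveratrol and -0.18 with the combination, beside 0.00 over all genes. HSP90AB1, which encodes the constitutive HSP90, fell by 0.61 (SE 0.0235, edgeR adjusted p = 5.9e-22) with resveratrol and by 0.67 with the combination. PTGES3 (p23) fell by 0.32 and 0.36, and HSP90AA1, the inducible HSP90, fell by 0.26 and 0.34. The coactivators NCOA3 and NCOA1 rose by 0.28 and 0.23 with resveratrol, and NCOA3 by 0.25 with the combination. The coactivators CREBBP and NCOA2 fell, by 0.21 (edgeR adjusted p = 0.00018) and 0.18 (edgeR adjusted p = 0.0454) with resveratrol and by 0.17 and 0.23 with the combination, so this group went both ways. Against the control, NRIP1 was a DEG with the combination only, at -0.19 (edgeR adjusted p = 0.0572). That call was lost in many settings, among them replicates 4 to 6 alone (-0.07, edgeR adjusted p = 0.503) and library size alone (edgeR adjusted p = 0.311). It was also lost without combination replicate 2 or 3. The NCOA1 rise with resveratrol was lost in replicates 4 to 6 alone (0.19, edgeR adjusted p = 0.129). Both NCOA2 falls were lost in replicates 1 to 3 alone (-0.07 and -0.09, edgeR adjusted p = 0.595 and 0.448) and with library size alone (edgeR adjusted p = 0.313 and 0.113), and the one with resveratrol also without control replicate 5 or 6 or resveratrol replicate 1 (-0.16 to -0.13).

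Other genes often named as targets of the receptor did not move together. Of 16 listed, 12 were tested. With resveratrol 4 rose and 3 fell, and with the combination 4 rose and 2 fell, with medians of -0.01 and 0.03 beside 0.00 over all genes. These 7 and 6 DEGs of 12 are about the share of all genes, 56.9% and 59.8%. With library size alone as the scaling 6 rose and 3 fell with resveratrol, and 6 rose and 2 fell with the combination. NQO1, a quinone reductase that is also induced through NRF2, rose from 246 ± 10.6 CPM (SD, n = 6) to 337 ± 12.0, a log2 change of 0.45 (SE 0.0338, edgeR adjusted p = 8.2e-14). PTGS2, which makes prostaglandins, rose by 0.73 with resveratrol and 0.87 with the combination, and VAV3 by 0.52 and 0.47. The VAV3 call with the combination was lost in replicates 4 to 6 alone (0.27, edgeR adjusted p = 0.12). IL1B, an inflammatory cytokine, had 46.8 ± 2.70 CPM in the control, 16.6 ± 1.23 with resveratrol and 21.2 ± 1.65 with the combination. It fell by 1.49 (SE 0.0647, edgeR adjusted p = 2.1e-20) and by 1.14 (SE 0.0632, edgeR adjusted p = 1.6e-17). SLC7A5, an importer of large neutral amino acids, fell by 0.53 and 0.54. It was the 1 gene of the 12 tested that fell with EGCG, by 0.12 (edgeR adjusted p = 0.0509), where 0.859% of all genes were lower. That call was lost without control replicate 1, 2 or 6 or EGCG replicate 3 or 5 (edgeR adjusted p from 0.102 to 0.159), and in either set of replicates alone (edgeR adjusted p = 0.118 and 0.514). SERPINB2 fell by 0.47 with resveratrol (edgeR adjusted p = 2.5e-05) and changed by 0.01 with the combination (edgeR adjusted p = 0.94).

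Genes that work with the CYP1 enzymes were higher or not changed beyond the threshold, with 1 exception. Of 9 listed and tested, 5 rose and 0 fell with resveratrol, 4 rose and 1 fell with the combination, and with EGCG 0 were DEGs by edgeR or DESeq2 and 0 had an unadjusted p under 0.05. Among all genes 28.9% rose and 28.0% fell with resveratrol, and 29.9% did either with the combination. With resveratrol DESeq2 also gave 5 higher and 0 lower, and library size alone as the scaling gave 7 and 0, and 6 and 0 with the combination. Their medians were 0.14 and 0.16 beside 0.00 over all genes. EPHX1, the microsomal epoxide hydrolase that acts on CYP1-made epoxides, rose from 27.5 ± 1.95 CPM (SD, n = 6) to 64.8 ± 2.36 after resveratrol and 64.6 ± 4.56 after both agents. Its log2 change was 1.23 in both (SE 0.0538 and 0.0543, edgeR adjusted p = 2.5e-20 and 2.4e-20). SULT1E1, which sulfates estrogens, rose by 2.28 and 2.36, from 1.01 ± 0.452 CPM. Its median was 1.02 CPM in the control and 1.0 with EGCG, against 4.77 with resveratrol and 5.09 with the combination. Passing the filter on low counts thus rested mainly on the groups where SULT1E1 was high. POR, the reductase that passes electrons to the P450 enzymes, rose by 0.33 with the combination. PGRMC1, a heme-binding partner of P450s, was the exception, with a fall of 0.10 with the combination (edgeR adjusted p = 0.0182) that came to -0.01 with library size alone as the scaling (edgeR adjusted p = 0.791) and -0.06 in replicates 4 to 6 alone (edgeR adjusted p = 0.24).

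Enzymes of tryptophan breakdown, some of which make the receptor ligand kynurenine while others break it down further, were scarce in part. Of 12 listed genes 6 passed the filter and were tested, and the entry enzymes IDO1 and IDO2 had 0 counts in all libraries. With resveratrol 3 rose and 2 fell, with the combination 2 rose and 2 fell, and with EGCG 1 rose, where 56.9%, 59.8% and 1.76% of all genes were DEGs. KYNU, which cleaves kynurenine, rose from 0.861 ± 0.213 CPM (SD, n = 6) by 1.2 (edgeR adjusted p = 0.00016) with resveratrol. The rise was 1.52 (edgeR adjusted p = 2.9e-06) with the combination. KYNU medians were 0.784 CPM in the control and 0.817 with EGCG, against 2.21 with resveratrol and 2.62 with the combination. Passing the filter on low counts thus rested on the groups where KYNU was high, and its p-values carry that selection. KMO, which hydroxylates kynurenine, fell by 0.97 (edgeR adjusted p = 1.4e-05) and by 0.53 (edgeR adjusted p = 0.00687), the latter lost in replicates 4 to 6 alone (-0.44, edgeR adjusted p = 0.164). AFMID rose by 0.38 and 0.55, and by 0.30 with EGCG (edgeR adjusted p = 0.0464, but 0.103 to 0.149 without control replicate 1 or 6 or EGCG replicate 1, and 0.379 and 0.514 in replicates 1 to 3 and 4 to 6 alone). List medians were 0.02, 0.00 and, with EGCG, 0.13, beside 0.00 over all genes.

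Among the bHLH-PAS relatives, which share the fold of AHR and ARNT, 10 of 16 genes were tested. With resveratrol 4 rose and 2 fell, with the combination 4 rose and 3 fell, and with EGCG 1 rose, beside 56.9%, 59.8% and 1.76% of all genes. With library size alone as the scaling 6 rose and 2 fell with resveratrol, and 5 rose and 2 fell with the combination. EPAS1, the hypoxia-inducible factor HIF2α, had 109 ± 4.52 CPM (SD, n = 6) in the control, 122 ± 5.32 after EGCG, 192 ± 8.24 after resveratrol and 229 ± 9.94 after both. It rose by 0.16 (edgeR adjusted p = 0.0196), 0.82 (edgeR adjusted p = 6.6e-20) and 1.07 (edgeR adjusted p = 1.4e-23). The rise with EGCG was lost in replicates 4 to 6 alone (0.12, edgeR adjusted p = 0.62). Of the clock genes, BMAL1 rose by 0.31 with resveratrol and 0.58 with the combination, PER3 fell by 0.32 and 0.78, and CLOCK fell by 0.22 and 0.25. BMAL1 with resveratrol was at 0.14 in replicates 4 to 6 alone, where the call was lost (edgeR adjusted p = 0.454). Medians were 0.06 and 0.05 beside 0.00 over all genes.

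**Figure D5:**
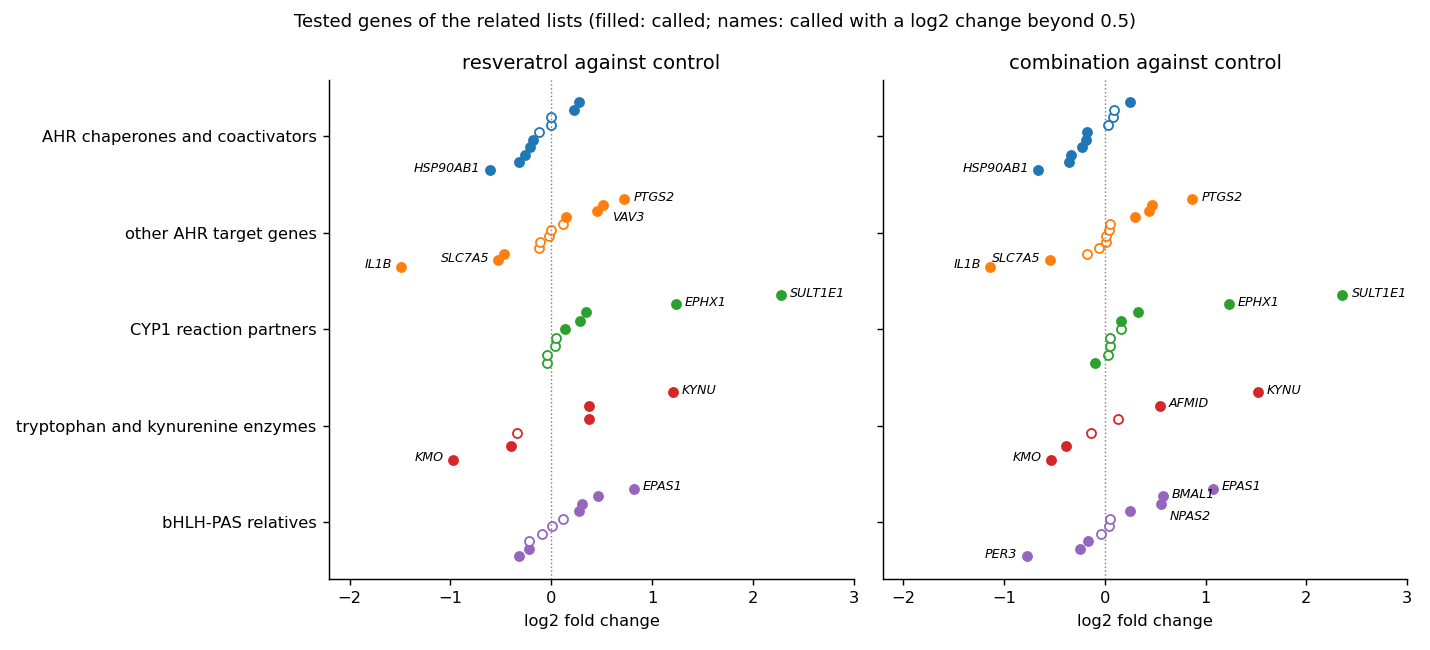
Log2 fold change (horizontal axis) against the control of the tested genes in 5 related lists, with resveratrol on the left and the combination on the right. Each point is 1 gene, and filled points are DEGs. IL1B and HSP90AB1 lie lowest in their lists and SULT1E1, KYNU and EPAS1 highest in theirs, with EPHX1 next below SULT1E1. SULT1E1 and KYNU passed the filter on low counts mainly through the groups with resveratrol, where they are high.

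Genes whose log2 CPM followed each member most closely over the 24 libraries were also read out, as a description of libraries that share their groups and depth. For CYP1B1 these were ALDH1A3, a retinaldehyde dehydrogenase, with Pearson r = 0.992, HSP90AB1 at 0.989, SRSF7 and DKC1 at 0.987, and STIP1, an HSP90 co-chaperone, at 0.986. ALDH1A3 changed by -0.45 with EGCG and by -2.29 both with resveratrol and with the combination, so among these 5 it came nearest to CYP1B1 in size. For CYP1A1 they were NRG1 at 0.984, ALDH1A3 at 0.982 and DUT at 0.982, for AHR DSG3 at 0.967, CBX5 at 0.959 and ITGAV at 0.957, and for TIPARP CUL3 at 0.958, USP16 at 0.95 and PSMD12 at 0.945. ARNT had looser neighbours in LINC02128 at 0.823, SEPTIN6 at 0.799 and LSG1 at 0.773. DSG3, first for AHR, is also 1 of the squamous markers and rose by 0.42 with resveratrol, while KRT5, KRT14 and KRT6A fell by 0.29, 0.29 and 0.27, and its part in the change of AHR was not tested. CYP1A1 and CYP1B1 had r = 0.979 with each other, and r = -0.933 and -0.912 with AHR.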

How the data were processed

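Total RNA of 24 libraries was analysed, 6 in each of 4 groups taken from the labels. The authors made TruSeq stranded mRNA libraries, and the submitters' processing notes name bcl2fastq 2.17.1.14, Trimmomatic 0.36, FastQC 0.11.5, HISAT2 2.0.4, SAMtools 1.3.1, DESeq2 1.20.0 and GRCh38. The counting program, annotation release and strand setting are not given in the sources used here. The authors deposited raw counts per gene, not normalized and not pooled. In their normalized counts, deposited as a signal per gene, each library proved to differ from the raw counts by 1 factor. The FPKM values deposited by the authors were checked to be these divided by 1 length factor per gene, and were used for levels between genes only.

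Raw counts were fitted with edgeR 4.0.16 (R 4.3.3, TMM, filterByExpr, quasi-likelihood test) over all 24 libraries, in 6 comparisons. A gene was a DEG at an adjusted p (Benjamini-Hochberg over 15476 genes) under 0.1 and a p under 0.05, as in the methods of the study. AHRR, under the filter, was tested by exact permutation. CPM values are TMM-scaled, and log2 CPM used a prior count of 2. Intervals are at 95%. No label says whether replicates were separate cultures, so p-values measure only the spread between libraries, which may be technical. Depth was 7034872 to 11735574 counts per library, and counting error is large for CYP1A1 with resveratrol, AHRR and CYP1A2.

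The members and the 7 other gene lists were chosen with earlier results of these data known. The text names the 7 members, up to 3 called genes of each list per direction in each comparison with the control, of which it names a part, genes overlapping members, tested protein-coding genes within 250 kb of CYP1A1, CYP1B1 or TIPARP, of which it names a part, and the 5 (CYP1B1) or 3 genes most correlated with each tested member. The falls of CREBBP, NCOA2, NRIP1 and SFN are named beyond these. Alternatives were the DESeq2 1.42.0 Wald test, DESeq2 size factors, library size alone, 2 other filters, an adjusted p under 0.05, the replicate number as a block, the 2 sets of replicates as a term or alone, only the groups compared, each library left out, and the authors' normalized counts and FPKM for levels. The steps were tested on simulated data.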

Additional observations from a re-analysis of the deposited data

Results flagged for a closer look

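The lowest CYP1A1 level among the combination libraries, 0.39 CPM in replicate 1 (3 counts), stood apart from the other 5, with a gap to the next library of 0.626 of the range of the group against a critical value of 0.625. In 20 groups of libraries tested this way, about 1 in 20 is marked by chance. The effect of resveratrol differed with and without EGCG for 2 of the 12 tested genes of the list of other receptor targets, where 0.265% of all genes passed. For SERPINB2 the interaction was 0.57 on the log2 scale (edgeR adjusted p = 0.0253), and for IL1B it was 0.45 (edgeR adjusted p = 0.0186). With the combination SERPINB2 was higher than with resveratrol by 0.48 and IL1B by 0.36, in 6 of 6 libraries relative to the resveratrol mean. That difference of IL1B was lost in replicates 4 to 6 alone (0.31, edgeR adjusted p = 0.126). In replicates 1 to 3 alone the interactions of SERPINB2 and IL1B were 0.54 (edgeR adjusted p = 0.628) and 0.38 (edgeR adjusted p = 0.526). In replicates 4 to 6 alone the interaction of SERPINB2 was 0.62 (edgeR adjusted p = 0.318), and the call of the IL1B interaction was not lost.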

How the results depend on the processing

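No change of a member that was a DEG reversed under the alternatives run. Of the 30 changes of members, 4 took the other sign in 1 or 2 settings, and 0 of these were DEGs by edgeR or DESeq2 in any setting (lowest adjusted p = 0.228): AHR with EGCG, its interaction, and CYP1A1 and CYP1B1 with the combination against resveratrol. The number of members that were DEGs with EGCG went from 2 to 1 with genes required to have at least 10 counts in every library, where CYP1A1 was not tested, and to 1 in replicates 1 to 3 alone, where CYP1A1 had an adjusted p of 0.207 by edgeR. The other numbers of called members stayed within 1.5 times. Same-numbered libraries deviated together weakly: correlations of their deviations were -0.011 to 0.131, with 31 of 36 pairs above 0 and 2 over 0.1. Of 24 libraries 11 correlated best with their own number, where 4 would if numbers were unrelated, a hint from the data and not the design. Since not every pair was over 0.1, the libraries were not treated as paired. With the replicate number as a block, the members called were 2 with EGCG, 5 with resveratrol, 4 with the combination, 0 for the combination against resveratrol, 5 against EGCG and 0 for the interaction. Library size alone in place of TMM moved the median of all genes by up to 0.092 and the share of DEGs that were higher from 50.7% to 68.3% with resveratrol, from 50% to 64.6% with the combination and from 49.6% to 63.8% for the combination against EGCG. Depth limits AHRR, CYP1A2 and, with resveratrol, CYP1A1.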
